A study of Homo sapiens with 72 samples.

Results

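The genes described are the subunits of the proteasome and the factors that assemble it, 45 genes chosen by symbol, and all 45 were found among the 23132 genes used. They fall into 7 alpha and 7 constitutive beta subunits of the core particle, 3 catalytic subunits of the immunoproteasome, 6 ATPases and 11 non-ATPase subunits of the regulatory particle, 4 activators, 4 core assembly factors and 3 regulatory particle assembly factors. Their RNA was measured by DRUG-seq, a barcoded assay of the 3′ ends of mRNA made directly from lysed wells. The cells were wildtype normal human dermal fibroblasts, primary skin cells, held for 24 hours in 384-well format with omaveloxolone or DMSO, the solvent. Omaveloxolone, a triterpenoid drug, binds KEAP1 and thereby stabilizes NRF2, a transcription factor. There were 32 wells with DMSO and 4 wells at each of 0.0005, 0.002, 0.005, 0.014, 0.04, 0.12, 0.37, 1.11, 3.33 and 10 µM. Replicates were wells of the same cells, so p-values measure the spread between wells, which may be technical. Each dose filled 2 plate columns of rows K and L, and DMSO lay in columns 2 and 23, so dose and plate column cannot be told apart.

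The proteasome degrades proteins that carry ubiquitin. Its core particle is a barrel of alpha and beta rings that holds the proteolytic sites, and the regulatory particle caps the barrel, binds ubiquitin, removes it and unfolds the substrate. Interferon signalling is known to exchange the catalytic subunits PSMB5, PSMB6 and PSMB7 for PSMB8, PSMB9 and PSMB10, which favours peptides for MHC class I display. The constitutive genes are known to be raised together by NRF1, the product of NFE2L1, when proteasome activity falls. NRF1 and NRF2 both bind the antioxidant response element with small MAF proteins.

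DNA before the starts of 4 members called at 0.37 µM is shown: PSMB3 and PSMD3 rose, PSMD14 rose the most, and PSMB9 fell the most. Members not called at that dose are not shown. The stretches are the 250 bases upstream of the RefSeq start on build GRCh38.p14, plus strand, 5′ to 3′. They lie at chr17:38752491-38752740 for PSMB3, chr17:39980557-39980806 for PSMD3, chr2:161308175-161308424 for PSMD14 and chr6:32853942-32854191 for PSMB9. Capitals mark a match to TGACNNNGC, the core letters of the antioxidant response element, on either strand.
PSMB3: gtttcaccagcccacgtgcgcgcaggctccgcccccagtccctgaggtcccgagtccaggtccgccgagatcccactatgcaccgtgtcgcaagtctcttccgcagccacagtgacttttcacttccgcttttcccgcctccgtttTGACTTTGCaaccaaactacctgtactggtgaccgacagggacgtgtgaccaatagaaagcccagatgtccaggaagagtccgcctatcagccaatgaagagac
PSMD3: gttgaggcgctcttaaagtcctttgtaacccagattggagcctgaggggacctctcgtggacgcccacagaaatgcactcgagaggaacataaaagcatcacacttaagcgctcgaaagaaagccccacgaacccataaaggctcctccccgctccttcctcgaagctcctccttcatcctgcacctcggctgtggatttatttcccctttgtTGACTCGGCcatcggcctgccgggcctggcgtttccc
PSMD14: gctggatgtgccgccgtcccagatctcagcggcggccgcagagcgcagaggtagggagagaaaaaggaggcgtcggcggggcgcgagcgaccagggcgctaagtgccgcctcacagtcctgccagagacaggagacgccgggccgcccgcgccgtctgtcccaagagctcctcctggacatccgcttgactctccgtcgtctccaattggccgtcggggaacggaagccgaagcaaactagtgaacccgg
PSMB9: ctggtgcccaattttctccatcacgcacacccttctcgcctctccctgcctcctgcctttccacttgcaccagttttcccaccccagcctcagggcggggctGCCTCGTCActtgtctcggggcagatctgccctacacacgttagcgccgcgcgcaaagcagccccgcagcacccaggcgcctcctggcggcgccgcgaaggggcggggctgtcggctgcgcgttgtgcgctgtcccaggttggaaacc
The match starts 104 bases before the start of PSMB3, 37 bases before that of PSMD3 and 148 bases before that of PSMB9, there on the opposite strand. PSMD14 had no match in its window.

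RefSeq windows of 300 bases, 250 before to 50 after the start, were at hand for 39 of the 45 members. PSMA7, PSMB1, PSMB6, PSMB7, PSMD4 and PSMG3 were not matched. TGACNNNGC, searched on both strands, was in 13 of the 39 windows (33.3%) and in 13.6% of 27305 windows of all genes. Among members with a window it was in 7 of 25 that rose at 0.37 µM, such as PSMC4, PSMD1 and PSMD12, in 2 of 4 that fell (PSMB9 and PSME1), and in 4 of 10 that were not called (PSMD5, PSMD9, PSME2 and PSMG2). The letters were thus present in members of every response. CCAAT, searched on both strands, was in 18 of 39 windows (46.2%) against 35.7% of all windows, in 14 of the 25 windows of members that rose, in 1 of 4 of those that fell and in 3 of 10 of those not called. GAANNTTC, a heat shock element core that reads the same on both strands, was in 0 of 39 member windows and in 6.87% of all windows. No TGACNNNGC match overlapped a CCAAT match, and the 2 CCAAT matches of PSMD14, one on each strand, shared 2 bases.

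DMSO wells held 4910790 to 8685413 counts. The mean total at 0.37 µM was 1.48-fold the DMSO mean. Above that dose wells were shallow: the totals at 1.11, 3.33 and 10 µM lay 4.25-fold, 39.2-fold and 216-fold below DMSO. HMOX1 and NQO1, targets of NRF2, rose at 0.37 µM, with log2 changes of 5.18 ± 0.13 and 3.73 ± 0.12 (SE). They also rose at lower doses: 1 of the 2 was higher at 0.002 and 0.005 µM, and both from 0.014 µM. Their log2 changes were 1.07 and 1.91 at 0.014 µM, 2.65 and 2.74 at 0.04 µM, and 3.01 and 4.48 at 0.12 µM. At 1.11 µM 1 was higher, at 5.05, and the other stood at -0.03. All 10 fibroblast markers were counted. Their summed level, in CPM (counts scaled to a common total, after TMM scaling), was 67482 to 81643 in DMSO, 33809 to 37962 at 0.37 µM and 66662 to 79359 at 1.11 µM. VIM made up most of this sum, with a mean of 60343 CPM in DMSO, and single markers differed. At 0.37 µM all 4 wells lay below every DMSO well for COL1A1, COL1A2, COL3A1, DCN, LUM, PDGFRB, THY1, VIM and FAP. Among all tested genes 5.18% did so. The mean of COL1A1 was 404 CPM there beside 3634 in DMSO. PDPN alone of the listed fibroblast markers did not fall in this way, with a mean of 37.9 CPM beside 41.7. At 1.11 µM COL3A1 was at 420 CPM beside 1215 in DMSO, while FAP was at 253 beside 132. The part of these marker changes in the proteasome values was not tested. In lysates of whole wells, fewer cells and less RNA per cell cannot be told apart.

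The 45 genes together took a share of the counts of a well that stayed near the DMSO level at low doses, was highest at 0.37 µM and dropped at 1.11 µM. In DMSO the share was 0.489% ± 0.0184 (SD, n = 32; 0.459 to 0.529%). It was 0.514% ± 0.0053 (SD, n = 4) at 0.04 µM and 0.573% ± 0.0172 at 0.12 µM. At 0.37 µM it was 1.01% ± 0.0729, between 0.915 and 1.09%, 2.06-fold the DMSO mean. At 1.11 µM it was 0.395% ± 0.0155, 0.807-fold the DMSO mean. The wells at 0.12 and 0.37 µM lay above every DMSO well and those at 1.11 µM below every one. PSMB8, PSMB9 and PSMB10 went the other way, from 0.0152% ± 0.00182 in DMSO to 0.0105% at 0.12 µM and 0.00538% at 0.37 µM.

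**Figure D1:**
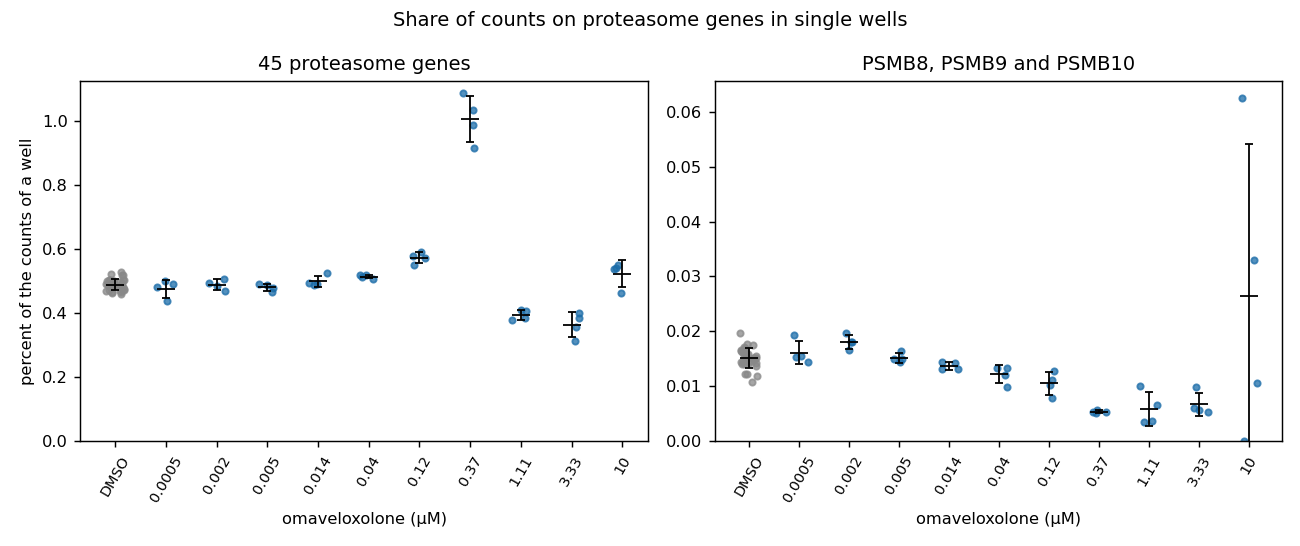
Percent of the counts of a well (y axis) on the 45 proteasome genes (left) and on PSMB8, PSMB9 and PSMB10 (right) at each dose of omaveloxolone in µM (x axis). Points are wells, and bars are mean ± SD of 32 DMSO wells or 4 wells of a dose. The 4 wells at 0.37 µM are the highest on the left, at 0.915 to 1.09%, and lie below every DMSO well on the right.

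At the 5 lowest doses no proteasome gene passed an adjusted p of 0.05 against DMSO (edgeR quasi-likelihood test over 14259 genes, Benjamini-Hochberg adjustment). The share of all tested genes called in either direction was, from the lowest of these doses up, 0.00701%, 0.0561%, 0.0771%, 0.217% and 0.792%. At an unadjusted p under 0.05 these doses held 2, 3, 3, 2 and 5 members, and the Wald test of DESeq2 called 1, 0, 1, 0 and 1. For unadjusted and Wald calls, here and below, no share of all genes is given, so these counts have no background to be read against. Median log2 changes of the 45 genes were -0.02, 0.03, 0.04, 0.08 and 0.09 in that order of dose. At 0.12 µM, 3 of 45 rose and 0 fell, against 1.31% of all genes higher and 1.02% lower, and the median log2 change was 0.32 beside -0.07 for all genes. The 3 that rose were PSMA7, PSMB7 and PSMD14, and over the alternatives tried 0 to 13 rose, with 0 when DMSO was limited to rows K and L and 13 when the dose was fitted with DMSO alone. Without an adjustment 2 members were lower at 0.12 µM, and the Wald test called 1. At 0.37 µM, 30 of 45 rose and 4 fell, against 11.2% higher and 13.6% lower among all genes, with a median of 1.08 beside -0.14. At 1.11 µM, 2 rose and 9 fell, against 9.77% and 13.2%, with a median of -0.18 beside -0.20. Over DMSO and the doses up to 1.11 µM, 32 of 45 genes had their highest mean level at 0.37 µM. The share of all genes with their highest mean at that dose was not computed.

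**Figure D2:**
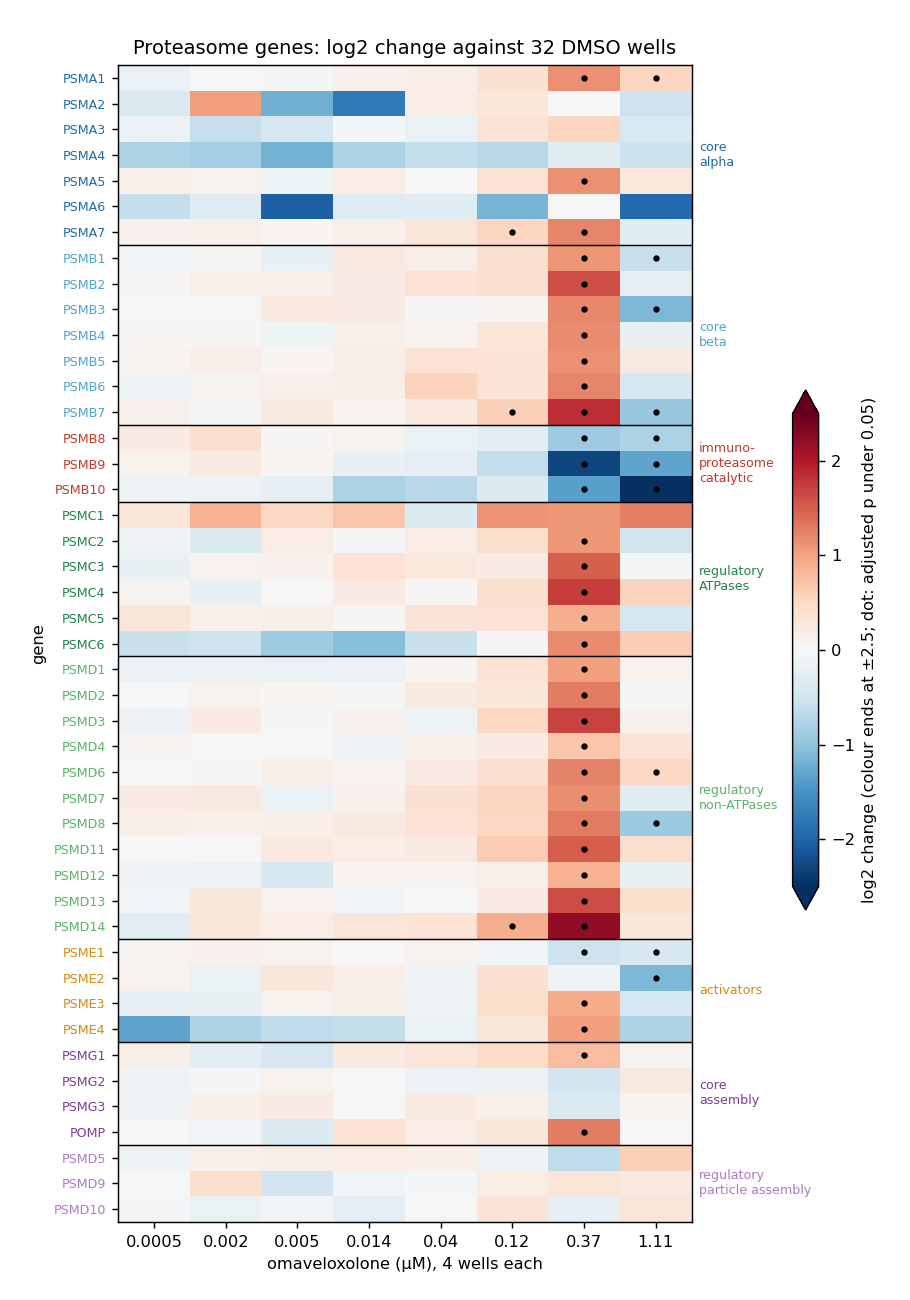
Fitted log2 change of each proteasome gene (rows, grouped and coloured by class) against 32 DMSO wells at 8 doses (columns, µM). Red is higher, blue is lower, colours end at ±2.5, and a dot marks an adjusted p under 0.05. Dots are absent up to 0.04 µM, number 3 at 0.12 µM and 34 at 0.37 µM, where the immunoproteasome rows are blue and most other rows red.

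All 4 wells at 0.37 µM lay above every DMSO well for 26 of the 45 genes, against 6.04% of all tested genes. They lay below every DMSO well for PSMB8 and PSMB9, against 5.18%. At 0.12 µM the 4 wells lay above every DMSO well for 5 genes (PSMA7, PSMB7, PSMD8, PSMD11 and PSMD14), against 1.02%, and below for 0, against 0.631%. At 1.11 µM they lay above for 0 genes, against 2.26%, and below for 4 (PSMB3, PSMB10, PSMD8 and PSME2), against 3.32%. When DMSO was limited to its 4 wells in rows K and L, the rows of the treated wells, 19 genes rose and 1 fell at 0.37 µM, with a median of 1.08. The calls lost were those of PSMB3, PSMB6, PSMB8, PSMB10, PSMC2, PSMC5, PSMC6, PSMD1, PSMD4, PSMD12, PSME1, PSME3, PSME4 and PSMG1. With the size factors of DESeq2 the median of all genes moved to 0.11 and that of the 45 to 1.34, and 31 rose and 3 fell.

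The constitutive beta subunits, which include the proteolytic sites, rose without exception at 0.37 µM, 7 of 7 with a median log2 change of 1.20. PSMB7, the trypsin-like subunit, changed the most. Its level was 73 to 123 CPM in DMSO with a median of 99, and 315, 379, 334 and 379 CPM in the wells at 0.37 µM. All 4 lay far above the DMSO wells, a log2 change of 1.84 ± 0.16 (SE; adjusted p = 1.4e-16, edgeR). PSMB1, a structural subunit of the ring, changed the least of the 7, from a DMSO median of 266 CPM (209 to 362) to 580, 524, 619 and 608 CPM, a log2 change of 1.10 ± 0.16. PSMB5, the chymotrypsin-like subunit, stood at 218 to 371 CPM in DMSO with a median of 278 and at 577, 690, 621 and 550 CPM at 0.37 µM. PSMB6, the caspase-like subunit, stood at 68.8 to 115 CPM in DMSO with a median of 87.4 and at 173, 237, 221 and 182 CPM. The wells of these catalytic subunits did not overlap with DMSO, and their log2 changes were 1.14 ± 0.17 for PSMB5 and 1.22 ± 0.18 for PSMB6.

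Of the alpha subunits, which gate the barrel, PSMA1, PSMA5 and PSMA7 rose at 0.37 µM and 0 of 7 fell, with a median log2 change of 0.54. PSMA7 had 419 to 629 CPM in DMSO with a median of 544, and 1187, 1266, 1242 and 1294 CPM at 0.37 µM, a log2 change of 1.22 ± 0.13 (adjusted p = 1.3e-12). Its wells at 0.12 µM, at 735, 842, 756 and 772 CPM, also lay above every DMSO well, and that log2 change was 0.54 ± 0.14 (adjusted p = 0.011). PSMA3 was not called at 0.54 ± 0.26. PSMA4 had the lowest value of the class, -0.30 ± 0.31, not called, with 41.2 to 55.2 CPM in wells at 0.37 µM inside the DMSO range of 27.9 to 109 CPM. PSMA2 and PSMA6 had means of only 6 and 22 counts in a DMSO well, and their changes at 0.37 µM, with standard errors of 0.98 and 0.94, were too imprecise to read. Of the last 400 transcript bases, cut into words of 31 bases, PSMA6 shared 60.3%, PSMA1 36.6% and PSMA2 36.5% with other genes, so part of their reads may not be assigned to them alone. The same holds for PSMD4 (37.9%), PSME2 (39%) and PSMD9 (52.8%).

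In the regulatory particle, 5 of 6 ATPases and 11 of 11 non-ATPase subunits rose at 0.37 µM, with median log2 changes of 1.13 and 1.28. PSMC4, an ATPase of the unfolding ring, had 76.7 to 164 CPM in DMSO with a median of 112, and 286, 467, 380 and 343 CPM at 0.37 µM. That is a log2 change of 1.72 ± 0.20 (adjusted p = 7.1e-11), the largest of the ATPases, and no well overlapped with DMSO. PSMC5 had the smallest, 0.90 ± 0.21, with wells at 177, 187, 212 and 171 CPM above the DMSO range of 68.6 to 139 CPM. PSMC1 was not called at 1.08 ± 0.88. It had 18 counts in a mean DMSO well, and 47.3% of its words were shared with other genes.

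PSMD14, the metalloprotease that cuts ubiquitin chains from substrates, had the largest rise of the 45 genes. It stood at 43.7 to 105 CPM in DMSO with a median of 71.7, at 119, 122, 151 and 157 CPM at 0.12 µM, and at 301, 394, 344 and 305 CPM at 0.37 µM. The wells of both doses lay above all DMSO wells, with log2 changes of 0.92 ± 0.24 (adjusted p = 0.013) and 2.21 ± 0.21 (adjusted p = 4.7e-14). PSMD4, a ubiquitin receptor, had the smallest rise of its class, 0.69 ± 0.19, with 118, 141, 125 and 144 CPM at 0.37 µM just above the DMSO range of 57.5 to 118 CPM. The scaffold subunit PSMD3 and PSMD13 changed by 1.69 ± 0.20 and 1.64 ± 0.18. The other 7 non-ATPase subunits lay between 0.87 (PSMD12) and 1.51 (PSMD11).

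**Figure D3:**
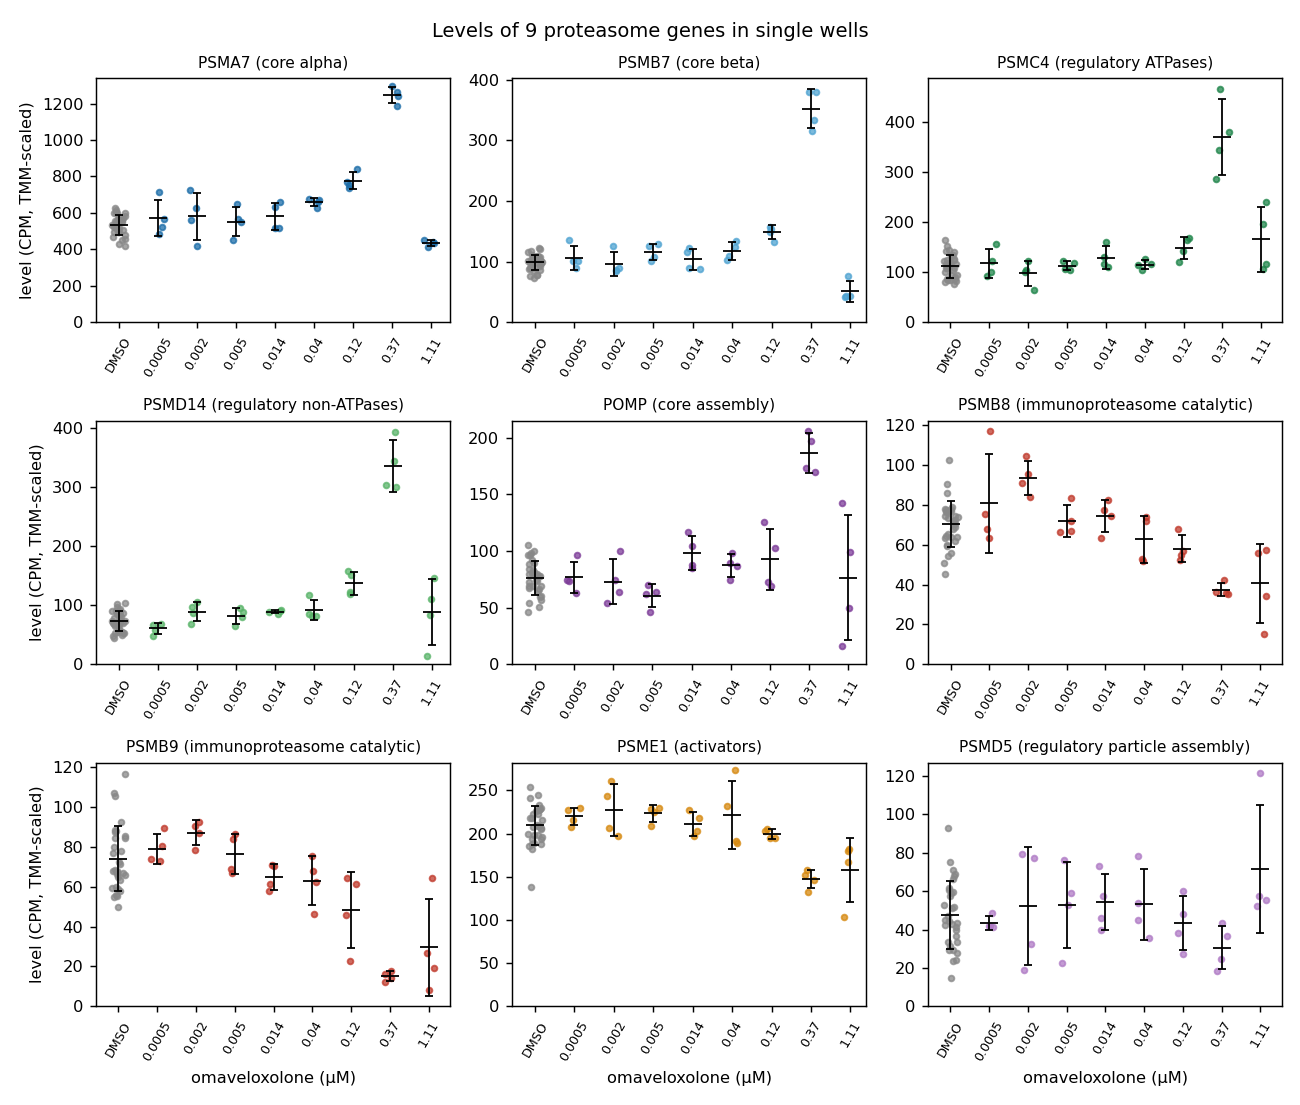
Level in CPM after TMM scaling (y axis, from 0) of 9 proteasome genes in single wells of DMSO (grey) and of doses from 0.0005 to 1.11 µM (x axis). Bars are mean ± SD. PSMA7, PSMB7, PSMC4, PSMD14 and POMP peak at 0.37 µM, PSMB8, PSMB9 and PSME1 are low there, and PSMD5 wells overlap with DMSO.

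The immunoproteasome subunits fell at 0.37 µM, 3 of 3 with a median log2 change of -1.36, while the subunits they replace rose. PSMB9 lies on chromosome 6 at 32844136 to 32859585 (GRCh38, GENCODE 29), in the MHC region beside PSMB8 at 32840717 to 32844703. In that annotation the ends of these genes overlap on opposite strands. The PSMB9 window shown above lies before a RefSeq start further inside this span. The peptide transporter gene TAP1, at 32845209 to 32853978 on the strand opposite to PSMB9, lies between that start and PSMB8. The 5′ end of TAP1, at 32853978, falls within the PSMB9 window. PSMB9 had 49.6 to 117 CPM in DMSO with a median of 68.1, and 12, 17.7, 14 and 16.4 CPM at 0.37 µM. All 4 wells lay below every DMSO well, a log2 change of -2.30 ± 0.29 (adjusted p = 4.4e-10). PSMB8 had 45.5 to 103 CPM in DMSO with a median of 71.8, and 36.2, 35.5, 42.3 and 35.6 CPM at 0.37 µM, again all below DMSO, a log2 change of -0.91 ± 0.24 (adjusted p = 0.0022). PSMB10 was low, at 3.09 to 26.2 CPM in DMSO with a median of 10.6. Its wells at 0.37 µM had 6.52, 3.09, 4.38 and 3.79 CPM and overlapped with DMSO, with a log2 change of -1.36 ± 0.44 (adjusted p = 0.016). Leaving out the library of replicate 2, 3 or 4 ended the PSMB10 call, limiting DMSO to rows K and L ended those of PSMB8 and PSMB10, and 81% of the end words of PSMB10 were shared with another gene. Of 4 immune cell markers 3 were counted, with a summed level of 92.7 to 184 CPM in DMSO, of 90.2 to 98.1 CPM at 0.37 µM and of 205 to 410.5 CPM at 1.11 µM, nearly all from CD68. CD14 was at 0 in the wells at 0.37 µM, and PTPRC, which marks all white cells, reached 0.163 CPM in a DMSO well and 5.22 CPM in a well at 0.37 µM. The part of such cells in the immunoproteasome values was not tested.

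Set against its constitutive counterpart within a well, each immunoproteasome subunit was lower at 0.04, 0.12, 0.37 and 1.11 µM, the doses compared. A ratio does not tell which of its 2 subunits moved. At 0.04 µM the immunoproteasome subunits had log2 changes of -0.70 to -0.17 and the constitutive beta subunits of 0.03 to 0.57. In both classes 0 were called there. The log2 ratio of PSMB9 to PSMB6 counts (0.5 added to each) was -0.26 ± 0.32 (SD, n = 32) in DMSO. At 0.04 µM all 4 wells lay below every DMSO well (difference -0.78; exact two-sided permutation test over all splits of 4 against 32 wells, adjusted over 12 tests, p = 8.1e-05). The differences were -1.02 at 0.12 µM (adjusted p = 0.00015, exact) and -3.50 at 0.37 µM (adjusted p = 5.1e-05, exact), which is 11.3-fold. For PSMB8 to PSMB5 they were -0.54, -0.59 and -2.04 at these doses, with adjusted p of 0.0016, 0.00023 and 5.1e-05 (exact), and the last is 4.11-fold. For PSMB10 to PSMB7 they were -0.86, -0.83 and -3.10, with adjusted p of 0.025, 0.027 and 5.1e-05 (exact). The wells at 0.37 µM lay below all DMSO wells for each ratio, and 5.1e-05 comes from 1.7e-05, the smallest p these splits can give. When DMSO was limited to rows K and L, the PSMB8 ratio at 0.04 µM, the PSMB10 ratios at 0.04 and 0.12 µM and the PSMB9 ratio at 1.11 µM no longer passed. Without the library of replicate 3 the PSMB10 ratios at 0.04 and 0.12 µM did not pass, nor that at 0.04 µM without replicate 1. At 1.11 µM the PSMB9 and PSMB8 ratios were -1.09 and -1.17 (adjusted p = 0.0014 and 0.00014, exact). That of PSMB8 was -0.74 without the library of replicate 3. The PSMB10 ratio there, -3.79, is set by the 0.5 added, since PSMB10 had 0 counts.

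**Figure D4:**
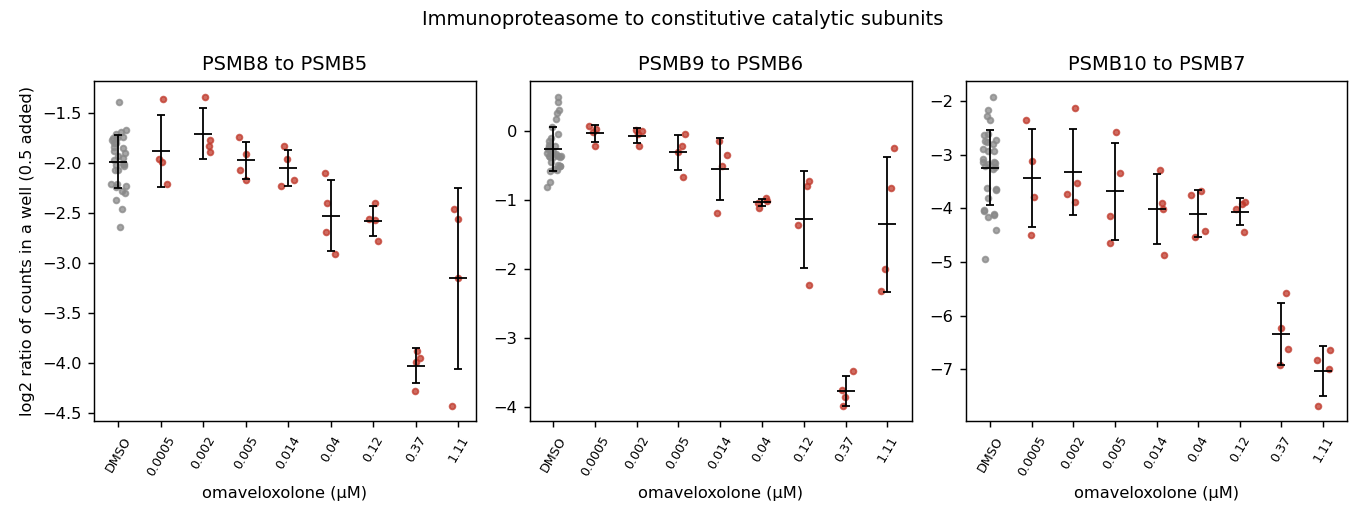
Log2 ratio of counts in a well (y axis, 0.5 added to each count) of each immunoproteasome subunit to the constitutive subunit it replaces, by dose in µM (x axis). Points are wells, bars are mean ± SD, grey is DMSO. The 4 wells at 0.37 µM lie below all DMSO wells in each panel. PSMB10 had 0 counts in every well at 1.11 µM, so those points of its panel are set by the 0.5 added.

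The activators bind the core in place of the regulatory particle. At 0.37 µM 2 of 4 rose and 1 fell. PSME1, which with PSME2 forms the interferon-induced ring, had 138 to 254 CPM in DMSO with a median of 209 and 153, 133, 158 and 146 CPM at 0.37 µM. It fell by 0.51 on the log2 scale (SE 0.15, adjusted p = 0.0071), although 3 of the 4 wells lay inside the DMSO range, and the call was lost with the size factors of DESeq2. PSME2 was not called at -0.09 ± 0.23, and its value was 0.17 with those factors. PSME3, the nuclear activator, rose from a DMSO median of 50.4 CPM (33.6 to 81.2) to 95.7, 95, 106 and 103 CPM, a log2 change of 0.92 ± 0.23 (adjusted p = 0.0012). PSME4, a single-chain activator, rose by 1.03 ± 0.26, with wells at 50.8, 134, 82.3 and 88.7 CPM of which 3 lay above the DMSO range of 18.9 to 73.2 CPM.

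Of the core assembly factors 2 of 4 rose at 0.37 µM, and of the regulatory particle assembly factors 0 of 3 were called. POMP, which drives maturation of the core, had 46.1 to 105 CPM in DMSO with a median of 77.7 and 197, 173, 206 and 169 CPM at 0.37 µM, all above DMSO (log2 change 1.29 ± 0.22, adjusted p = 4.1e-06). PSMG1, a chaperone of the alpha ring, rose by 0.77 ± 0.26 (adjusted p = 0.023) with 48.1, 60.6, 58.5 and 70.5 CPM. Of these wells 2 lay inside the DMSO range of 12.3 to 59 CPM, and the call was lost without the library of replicate 2, 3 or 4. Its partner PSMG2 had a log2 change of -0.47 ± 0.22 and PSMG3 one of -0.36 ± 0.23, and neither was called. The regulatory particle chaperones were not called either: PSMD5 had -0.64 ± 0.31, PSMD9 0.30 ± 0.27 and PSMD10 -0.21 ± 0.25. PSMD5 wells at 0.37 µM, at 43.3, 18.2, 24.5 and 36.4 CPM, lay inside the DMSO range of 14.7 to 93.1 CPM. The value of PSMD10 was 0.03 with the size factors of DESeq2. A p that misses the threshold does not show that these genes were unchanged.

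**Figure D5:**
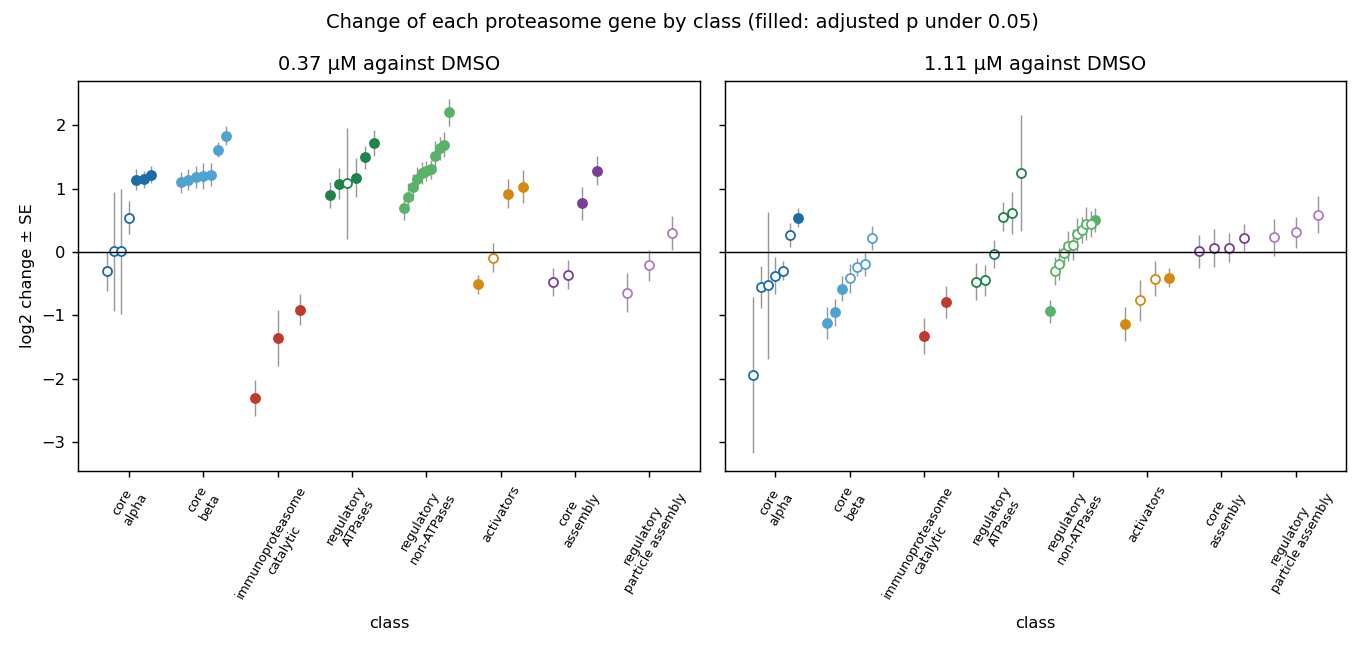
Log2 change ± SE (y axis) of each proteasome gene at 0.37 µM (left) and 1.11 µM (right) against DMSO, by class (x axis), with filled points for an adjusted p under 0.05. PSMB10 is left out on the right, where it had 0 counts. Core beta and regulatory particle subunits lie above 0 on the left. On the right 6 of 7 core beta subunits lie below 0 and regulatory particle subunits lie on both sides of it, while PSMB8 and PSMB9 lie below 0 in both panels.

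Neighbouring doses were also compared directly. From 0.04 to 0.12 µM 0 of 45 genes were called by edgeR, with 1 at an unadjusted p under 0.05, against 0.014% of all genes in either direction, although 35 of the 45 had a log2 change above 0 (median 0.21). From 0.12 to 0.37 µM 18 rose, led by PSMD13 (1.44 ± 0.28), PSMC4 (1.32 ± 0.32) and PSMD14 (1.29 ± 0.34), against 2.52% of all genes. PSMB9 alone fell in that step (-1.69 ± 0.32), against 5.6%. From 0.37 to 1.11 µM 29 of 45 fell, against 13.4% of all genes, and 2 rose (PSMB9 by 0.97 ± 0.33 and PSMD5 by 1.23 ± 0.41), against 12.1%. These 29 included 27 of the 30 genes that had risen at 0.37 µM, a comparison that shares the wells at 0.37 µM. PSMB7 fell by 2.79 and PSMB3 by 2.32 on the log2 scale in that step.

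Over the treated wells from 0.0005 to 0.12 µM, 24 in all, a linear trend on log10 dose called 9 of 44 tested members as rising and 2 as falling, against 2.06% and 1.82% of 12789 genes. Those rising were PSMA1, PSMA7, PSMB1, PSMB2, PSMB6, PSMD8, PSMD11, PSMD14 and PSME4, and those falling were PSMB8 and PSMB9. The slope per 10-fold dose was 0.39 ± 0.07 for PSMD14, 0.17 ± 0.05 for PSMA7, -0.25 ± 0.07 for PSMB8 and -0.32 ± 0.08 for PSMB9. Without the libraries of replicate 1, 2, 3 or 4 the members that rose numbered 4, 3, 5 and 2, and those that fell numbered 0, 1, 0 and 0. DMSO wells of plate column 23 against column 2 gave 0 members higher and 3 lower (PSMA4, PSMB5 and PSMG2), against 3.3% and 2.81% of 11258 genes. At an unadjusted p under 0.05, 12 were lower and 0 higher, and 37 of 44 lay below 0, with a median of -0.09 beside -0.02 for all genes. The largest of these plate differences was -0.62 ± 0.15, for PSMA4.

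At 1.11 µM the genes that had risen no longer moved as a group. PSMA1 and PSMD6 were still higher than DMSO, by 0.54 ± 0.15 and 0.51 ± 0.19, and of the 30 genes that rose at 0.37 µM 4 were now lower, PSMB1, PSMB3, PSMB7 and PSMD8. PSMB7 had 43.3, 76.1, 41.2 and 42.8 CPM, 3 of them below the DMSO wells (log2 change -0.95 ± 0.21). PSMD8 had 68.8, 118, 96.7 and 141 CPM against 162 to 258 CPM in DMSO (-0.94 ± 0.19). All 4 genes lower at 0.37 µM were among the 9 lower at 1.11 µM, and PSME2 joined them (-1.13 ± 0.27). PSMB9 had 64.2, 8.2, 26.9 and 19 CPM and PSMB8 55.7, 34.3, 15.1 and 57.1 CPM, wide spreads at this depth. PSMB10 had 0 counts in all 4 wells, which is at least 20.2-fold lower than DMSO with a floor of 3 counts over the group. The call of PSMD6 was lost without the library of replicate 2, 3 or 4, that of PSMA1 and PSMB8 without replicate 3, that of PSMB1 without 1 or 3, and that of PSME1 without 1 or 2. With DMSO limited to rows K and L, 0 members were higher and 4 lower, and the calls of PSMA1, PSMB1, PSMB7, PSMB8, PSMD6, PSME1 and PSME2 were lost.

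At the highest doses the wells held few counts on these genes, a mean of 617 in a well at 3.33 µM and 162 at 10 µM. At 3.33 µM 20 of 45 were lower and 3 higher (PSMC4, PSMD11 and PSMG2), against 32.9% and 7.35% of all genes. The median log2 change was -0.61 beside -2.32 for all genes, with 6 members at 0 counts. The lower ones included 4 of 7 alpha, 5 of 7 beta and 3 of 3 immunoproteasome subunits, and PSMD5 and PSMD10 had 0 counts in every well, at least 11.4-fold and 16.9-fold lower than DMSO. From 1.11 to 3.33 µM 13 fell and 2 rose (PSMB7 and PSMD8), against 27.6% and 7.13%. At 10 µM 25 were lower and 0 higher with TMM scaling, against 31.8% and 3.35%, and the median was -2.12 beside -5.51. With the size factors of DESeq2, however, 18 were lower and 7 higher, with a median of -1.24 beside -5.48. The medians at 10 µM include 14 members that had 0 counts. PSMA1 was among these, at least 12.1-fold lower. Directions at 10 µM therefore rest on the scaling.

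Other genes of the pathway were read from lists of partners, regulators and shuttles. Of 14 further proteasome subunits and partners tested, 9 rose at 0.37 µM and 0 fell, against 11.2% higher and 13.6% lower among all genes. ADRM1, a ubiquitin receptor of the regulatory particle, had 81.4 to 154 CPM in DMSO and 323, 460, 396 and 402 CPM at 0.37 µM, a log2 change of 1.84 ± 0.20. ZFAND2A, a proteasome-associated stress protein, changed by 3.24 ± 0.23, PITHD1 by 2.41 ± 0.21 and AKIRIN2, which brings the proteasome into the nucleus, by 1.10 ± 0.24. ZFAND2A kept a rise of 3.93 ± 0.23 at 1.11 µM, where PSMA1 and PSMD6 were the members still called higher. Of 12 genes for the transcriptional control of the proteasome, 4 rose at 0.37 µM and 1 fell, against the same 11.2% and 13.6%. Those that rose were NFE2L2, which encodes NRF2 (0.88 ± 0.19), the small MAF genes MAFF (1.97 ± 0.22) and MAFG (2.24 ± 0.24), and VCP (1.34 ± 0.15), a segregase needed to release NRF1. DDI2, the protease that cleaves NRF1, fell by 1.84 (SE 0.57). NFE2L1 itself was at 49.2, 43.2, 41.8 and 51.4 CPM at 0.37 µM beside a DMSO median of 49.6 CPM (-0.22 ± 0.31, not called) and was higher at 1.11 µM (1.11 ± 0.28). Of 6 ubiquitin shuttle genes 2 rose at 0.37 µM, UBQLN1 (1.70 ± 0.25) among them, and NUB1 (-0.99 ± 0.27) fell, again against 11.2% and 13.6%.

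The MHC class I loading genes, which share interferon control with the immunoproteasome, did not all follow it. Of 8 tested, 3 fell at 0.37 µM and 1 rose, against 13.6% lower and 11.2% higher among all genes. B2M, the light chain of the complex, had 3467 to 5184 CPM in DMSO and 2369, 2464, 2226 and 2400 CPM at 0.37 µM (-0.92 ± 0.11). IRF1, an interferon-induced activator, fell by 1.06 (SE 0.32), and the peptide trimmer ERAP1, with at most 24.9 CPM in DMSO, fell by 2.22 (SE 0.67). The peptide transporter genes TAP1 and TAP2 were not called at 0.37 µM, at 0.62 ± 0.36 and 0.92 ± 0.37, and rose at 1.11 µM by 1.23 ± 0.36 and 2.30 ± 0.35.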

How the data were processed

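Counts per gene and well were deposited without normalization. Per the submitters' processing notes the authors used kallisto and bustools on GRCh38, while tool versions, the annotation, strand handling and collapsing of molecular identifiers are not given in the sources used here, so counts may be reads rather than molecules, and floors cover counting error only. All 72 wells were mapped, and 0 pairs of wells were identical. Genes of the Y chromosome and XIST, 38 of 23170, were left out before totals. The protocol names 16 DMSO wells for a plate, and the 32 wells with that label were all used.

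A single fit of 72 wells was made in R 4.3.3 by the quasi-likelihood F test of edgeR 4.0.16 (TMM, robust dispersion, genes kept by filterByExpr at a minimum count of 10), with Benjamini-Hochberg adjustment within a comparison and a threshold of 0.05. SE was derived from the F value. Ratios were compared by exact permutation. DESeq2 1.42.0 gave alternative size factors and a Wald test. Promoter windows came from RefSeq on GRCh38.p14 and gene positions from GENCODE 29.

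The members and lists were chosen with earlier results of these data known. Values were given for the largest and smallest change at 0.37 µM in each class, for PSMB5 to PSMB10, the activators and assembly factors, for members called at 0.12 µM or lower at a dose, and for 5 other lists, of which some genes are not reported here. Of the listed genes 9 were not analysed here (PSMA8, PSMB11, KRT5, KRT14, KRT1, TYR, SOX10, CLDN5 and CD3E). Markers of melanocytes summed to at most 3.02 CPM in a DMSO well, those of endothelium to at most 5.36 CPM, and those of keratinocytes to 325 to 570 CPM, nearly all KRT10. Alternatives covered the scaling, the filter, the reference wells, the wells in the fit, left-out replicates, a plate side term, the replicate block and, added after seeing the data, keeping the left-out genes.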

Additional observations from a re-analysis of the deposited data

Results flagged for a closer look

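In 64 groups of 4 wells (18 members at 3 doses, and the share of counts on the 45 genes at 10 doses) the lowest or highest well was compared with the others. A well was taken to stand apart where its gap to the nearest well exceeded the share of the range of the group that Dixon gives for 4 values, which chance gives in about 1 in 20 groups, and 5 groups met this. PSMB6 at 0.12 µM had 107, 106, 118 and 107 CPM, with a gap of 0.933 of the range. PSMB7 at 1.11 µM had 43.3, 76.1, 41.2 and 42.8 CPM, with a gap of 0.941. PSMB8 at 0.37 µM had 36.2, 35.5, 42.3 and 35.6 CPM, with a gap of 0.886, and even its highest well lay below every DMSO well. PSMD5 at 1.11 µM had 57.2, 122, 55.5 and 52.3 CPM, with a gap of 0.93. The share of counts at 10 µM was 0.461, 0.538, 0.542 and 0.551%, with a gap of 0.853.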

How the results depend on the processing

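Of 48 calls of members at 0.12, 0.37 and 1.11 µM, all 48 kept direction and threshold with each dose fitted with DMSO alone, without the wells at 3.33 and 10 µM, with a plate side term and with the DESeq2 Wald test. With DESeq2 size factors 45 did, without the filter on low counts 45, with the left-out genes kept 47, with 0.0005 µM as the reference 38, and without one replicate 41 to 45. None of the 48 reversed under these settings, while PSMD10 and PSME2, not called at 0.37 µM, changed sign with DESeq2 size factors. When DMSO was limited to its 4 wells in rows K and L, 24 of the 48 kept direction and threshold. The other 24 kept direction but missed the threshold. Then 0 members rose at 0.12 µM, 19 rose and 1 fell at 0.37 µM, 0 rose and 4 fell at 1.11 µM, and 0 rose at 3.33 µM. The PSMB8 ratio at 0.04 µM was then -0.61 (adjusted p = 0.076), the PSMB9 ratio at 1.11 µM -1.12 (0.1), the PSMB10 ratios at 0.04 and 0.12 µM -0.72 and -0.69 (0.23 each, exact), and the share at 0.04 µM 1.03-fold DMSO. The cause was not tested, but this comparison holds fewer DMSO wells.

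Replicate numbers did not pair the wells: of 32 pairs of same-numbered wells, correlations of deviations ran from -0.185 to 0.197, 1 was over 0.1, and 9 of 32 wells correlated best with their own number. With the replicate block, which uses 4 DMSO wells, 22 of the 48 calls kept their threshold, 0 members rose at 0.12 µM, 19 rose and 1 fell at 0.37 µM, 0 rose and 2 fell at 1.11 µM, and 0 rose and 13 fell at 3.33 µM. From 0.12 to 0.37 µM 4 then rose, from 0.37 to 1.11 µM 0, from 1.11 to 3.33 µM 0, and the trend held 1 fall.

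The count at 0.12 µM depended most on the wells in the fit: 12 rose without the wells at 3.33 and 10 µM, 13 with DMSO alone, 6 by the Wald test and 1 with 0.0005 µM as the reference, and 1 fell with DMSO alone and by the Wald test. At 0.04 µM 5, 5 and 1 rose in the first 3 of these. At 0.0005 µM 1 fell without the filter, with DMSO alone and by the Wald test, as did 1 at 0.005 µM by the last. At 1.11 µM 4 rose without the highest doses, 5 with DMSO alone, 5 by the Wald test, and 1 without the filter or with 0.0005 µM as the reference. At 3.33 µM 0 rose against 0.0005 µM and 1 without the filter. At 10 µM 7 rose with DESeq2 size factors, 9 by the Wald test, and 1 without the filter or with DMSO alone. From 0.37 to 1.11 µM 1 rose with DESeq2 size factors. Without one replicate, 1 to 3 rose at 1.11 µM, 1 to 2 at 3.33 µM and 0 to 3 at 10 µM, 0 to 2 from 0.37 to 1.11 µM and 1 to 3 from 1.11 to 3.33 µM, and the trend held 2 to 5 rises and 0 to 1 falls. The PSMB10 ratios then ran from -0.71 to -0.997 at 0.04 µM and from -0.70 to -0.89 at 0.12 µM. The cause was not tested. Depth limits the values at 3.33 and 10 µM.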
